A study of Homo sapiens with 6 samples.

Results

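The proteasome is the large protease that degrades most proteins tagged with ubiquitin. Its barrel-shaped core particle stacks rings of alpha subunits (PSMA genes), which gate entry, around rings of beta subunits (PSMB genes), some of which carry the cutting sites. A regulatory particle caps the barrel: its base unfolds substrates with ATPases (PSMC genes) and its lid removes ubiquitin (most PSMD genes). Other proteins build the particles, replace the cap (PSME genes) or inhibit the core (PSMF1). In activated stellate cells, the matrix producers of the fibrotic liver, the proteasome clears misfolded secretory proteins and short-lived regulators.

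The genes described here are the rows of the deposited table whose symbol is PSM followed by a letter from A to G and a number, together with POMP and ADRM1, and whose mean over the 6 libraries was at least 10 normalized counts. These were 48 of the 50 rows with such symbols, among 15637 genes with that mean and 60669 rows in all. The lowest gene inside that minimum was PSMB10, with 131 ± 1.73 in siCTL (mean ± SD, n = 3). Those outside were the thymus subunit PSMB11, with a mean of 0.333, and the testis subunit PSMA8, listed at 0 in all 6 libraries. By role, the 48 held 7 alpha and 7 constitutive beta subunits, 3 immunoproteasome beta subunits, 6 base ATPases, 4 other base proteins, 8 lid subunits, 5 core assembly factors, 3 base assembly chaperones, 4 activators and 1 inhibitor. The lid subunit gene SEM1 has another symbol and falls outside the rule.

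RNA was sequenced from LX-2 cells, an established human line derived from activated hepatic stellate cells and labelled wild type. Cells of both groups were transfected with a lipid reagent and small interfering RNA (siRNA) and collected after 48 h. One group received a commercial negative control (siCTL, 3 libraries) and the other a single siRNA against ADAMTS12, a secreted metalloprotease (siADAMTS12, 3 libraries). The labels do not tell whether the 3 libraries of a group are separate cultures, and each p-value reflects the spread among libraries that may be technical repeats.

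The deposited normalized counts summed, in units of 1e6, to 33.6 to 34.1 per siCTL library and to 30.7 to 31.4 per siADAMTS12 library. ADAMTS12 itself went from 13122 ± 782 to 3740 ± 320 normalized counts. Stellate markers were present: 8 of 10 had a mean of at least 10, summing to 358598 to 394592 in siCTL and to 280579 to 293983 in siADAMTS12, while DES was at 0 in 5 libraries and LRAT in all 6. A mean of at least 10 was reached by 1 of 6 hepatocyte markers (SERPINA1, list sums 17 to 19 in siCTL and 22 to 27 in siADAMTS12), 1 of 5 leukocyte markers (CD14, 96 to 117 and 101 to 124) and 1 of 5 endothelial markers (VWF, 28 to 39 and 15 to 24). It was reached by 2 of 4 cholangiocyte markers (SOX9 and KRT7, 1874 to 2232 and 1733 to 2071), while EPCAM and KRT19 were at 0 to 7, as were ALB, APOB, PTPRC and PECAM1. The part of other cell types in the results was not tested.

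The sequences of the siRNA and of matching sites are shown first, because results below are given by whether a gene carries the match. The sense strand contains, in capitals, the 7 bases that pair with guide positions 2 to 8, the seed, which are in capitals in the guide. A 3' UTR with the same 7 bases can pair with the guide as with a microRNA.
siRNA sense strand: gccaaaguuugGAGGGAAa
siRNA guide strand: uUUCCCUCcaaacuuuggc

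In the GENCODE 29 transcripts of the 48 genes (GRCh38), 4 genes held this 7-mer in the 3' UTR of the transcript searched, and each held it at 1 position. They are shown because 3 of the 4 were among the genes that fell. The 7-mer is in capitals, with the transcript sequence on either side.
PSMD4 (chr1:151267349-151267355, plus strand): gactgGAGGGAAagggtagctga
PSMB2 (chr1:35603080-35603086, minus strand): gaaaggatatgGAGGGAAgatgatctttt
PSME3 (chr17:42841948-42841954, plus strand): ggttaaaagctGAGGGAAccggaaggaaa
PSME4 (chr2:53865080-53865086, minus strand): agagccatgaaGAGGGAAggaaaagaggg

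In control cells the proteasome transcripts were abundant and unequal. Summed, the 48 genes took 0.622% to 0.646% of all normalized counts in the siCTL libraries. Levels of different genes are given per kb of the transcript chosen for the search, as normalized counts per kb in siCTL. That transcript has the longest annotated 3' UTR among equally ranked ones, so a gene that uses a shorter 3' UTR is understated. PSMA7, an alpha subunit, was the highest at 11510 ± 1251 per kb, followed by the beta subunits PSMB1 (7982 ± 660), PSMB7 (7354 ± 118) and PSMB4 (6494 ± 431). PSMA7 lay above PSMB1 by more than both SDs, while PSMB1 and PSMB7 differed by less than the SD of PSMB1. The 7 constitutive beta subunits ranged from 2425 to 7982 per kb. The 18 subunits of the base and lid ranged from 651 for the ATPase PSMC1 to 5952 for PSMD2, the base scaffold that docks ubiquitin carriers, with a median of 2209.

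Of the 7 alpha subunits, which enter each ring in equal number, 3 were listed far below the others. PSMA1 stood at 317, 242 and 247 normalized counts in siCTL replicates 1, 2 and 3, PSMA2 at 168, 119 and 128, and PSMA6 at 160, 229 and 140. Per kb these were 178 ± 27.9, 93 ± 17.5 and 171 ± 45.4, while PSMA3, PSMA4, PSMA5 and PSMA7 ranged from 874 to 11510. The immunoproteasome subunit PSMB10 (108 ± 1.42 per kb) and the base chaperone PSMD9 (65.2 ± 12.4) were as low. All 5 share exon sequence with another gene model on the same strand in GENCODE 29: 53.2% of the transcript for PSMA1, 52.5% for PSMA2, 81.0% for PSMA6, 45.3% for PSMB10 and 43.8% for PSMD9. Each of the other 43 shared at most 0.1%, and their levels ranged from 448 to 11510 per kb, above all 5. The models that overlap PSMA1, PSMA2 and PSMA6 (AC018523.2, AC010132.3 and AL121594.1) are rows of the deposited table and hold 0 to 2 normalized counts in each library. AC040162.1, over PSMB10, holds 36 to 53. Of the models over PSMD9, AC069503.2 holds 0 to 2 and WDR66 220 to 316. Among all protein-coding genes with a mean of at least 10, the 388 with at least 40% of the transcript shared had a median of 47.6 per kb, against 319 for the 11374 with none. How the authors' counting treated reads that fit 2 genes is not given in the sources used here, and the part of the overlap in these levels was not tested. The levels of these 5 genes are therefore uncertain.

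**Figure D1:**
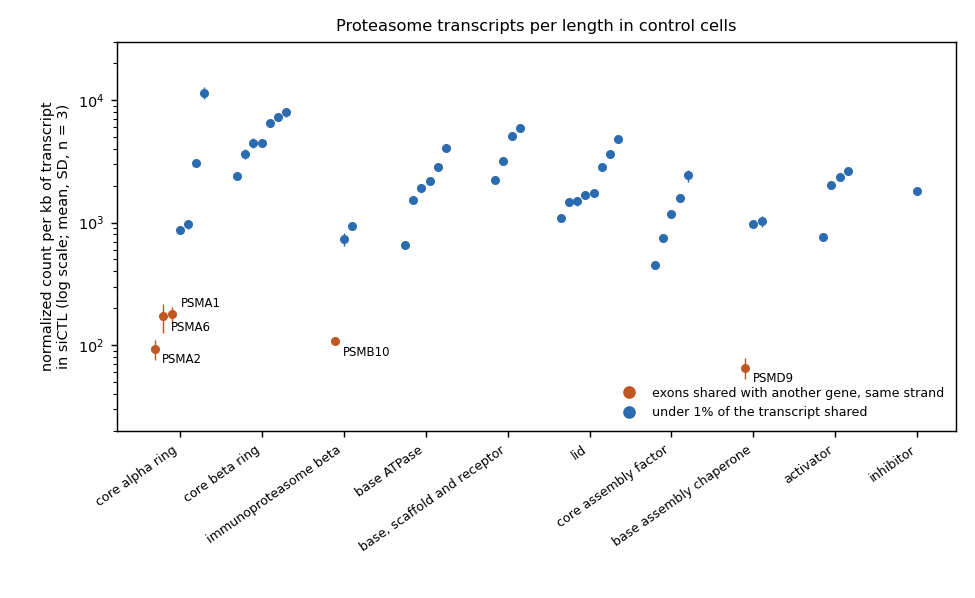
Normalized count per kb of transcript in siCTL (log axis; mean and SD of 3 libraries) for each of the 48 proteasome genes, grouped by role. The 5 genes that share exons with another gene on the same strand (orange, named) lie between 65.2 and 178 per kb, below all others (blue, 448 to 11510).

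With siADAMTS12 the proteasome genes moved little. Of the 48, 7 fell and 0 rose at an adjusted p below 0.05 (limma on log2(value + 1), Benjamini-Hochberg over 15637 genes). At an unadjusted p below 0.05, 13 were lower and 0 higher, where 20.9% of all genes were lower and 18.0% higher. Of all genes tested, 15.5% fell and 11.5% rose, so the 14.6% of proteasome genes that fell was near the background. That background was not matched to the 48 for level. Across the 48, the log2 fold change and the mean level in siCTL had a Spearman rho of -0.37. The log2 fold changes of the 48 ran from -0.29 to 0.17 with a median of -0.10, where the median of all genes tested was 0.005. As deposited, 40 of the 48 lay below 0, beside 7684 of all 15637 genes tested. For all 48 as deposited, the 95% interval of the fold change excluded a change of 1.5-fold in either direction. Under each of the other scalings described below this held for 47. The groups did not overlap in 15 proteasome genes that were lower (31.2%, beside 21.7% of all genes tested) and in 0 that were higher (19.2% of all genes tested). The 7 genes that fell have these positions in GENCODE 29 (GRCh38): PSMB2 at chr1:35599544-35641844 on the minus strand, and on the plus strand PSMD4 at chr1:151254703-151267479, PSMB4 at chr1:151399534-151401944, PSMD1 at chr2:231056864-231172827, PSMD13 at chr11:236546-252984, PSMD11 at chr17:32444261-32483318 and PSME3 at chr17:42824385-42843758. All are protein-coding. In bulk RNA, fewer cells of a type and less RNA per cell cannot be told apart.

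Over all genes, same-numbered libraries of the groups deviated together. Among the 48 their correlations were 0.68, 0.38 and 0.19 for replicates 1, 2 and 3, and -0.59 to 0.23 for other pairs. The 0.23 was that of siCTL replicate 3 with siADAMTS12 replicate 2, so replicate 3 did not pair by number there. With the replicate number as a block 15 of the 48 fell and 0 rose, the 7 among them. In that fit 19.6% of all genes fell and 15.5% rose. The added 8 were PSMA5, PSMB1, PSMB5, PSMB7, PSMC2, PSMD2, PSMD8 and PSMF1, with blocked adjusted p from 0.00971 for PSMB1 to 0.0462 for PSMA5. By role, 5 of the 7 beta genes, 3 of the 4 base scaffold and receptor genes and 3 of the 8 lid genes fell in that fit.

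The direction of the whole group rested on how the libraries were scaled. In the deposited columns the median gene was near unchanged (0.005) while the totals were lower in siADAMTS12. When each library was divided by its own total, the median of all genes moved to 0.13 and that of the proteasome genes to 0.02. Then 1 fell (PSME3), 1 rose (ADRM1), and 21 lay below 0 and 27 above, where 9.89% of all genes fell and 24.7% rose. After quantile normalization the proteasome median was -0.01, with 1 lower (PSMD4) and 1 higher (ADRM1), where 13.3% of all genes fell and 13.9% rose. As a share of all normalized counts, the 48 genes took 0.619% to 0.653% in siADAMTS12, a range that covers all 3 siCTL libraries. Taken as such shares, the summed levels of each of the 10 roles overlapped between the groups. Before division by the totals, the sum of the 48 genes went from 213950 ± 2697 to 196001 ± 4730 without overlap. As deposited, the sums of the alpha, immunoproteasome and core assembly roles overlapped, and those of the other roles were lower without overlap. Relative to the median of all genes, the proteasome median was lower by 0.11 as deposited and by 0.04 after quantile normalization. Total scaling moves all genes of a library nearly alike, so it could not change this difference. Centring each library on the median of the 48 genes takes out any shift they share, so that fit cannot test the group as a whole. In it 0 of them fell or rose by limma, where 9.0% of all genes fell and 15.9% rose. At an unadjusted p below 0.05, 3 were lower and 0 higher, beside 12.6% and 25.2% of all genes.

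**Figure D2:**
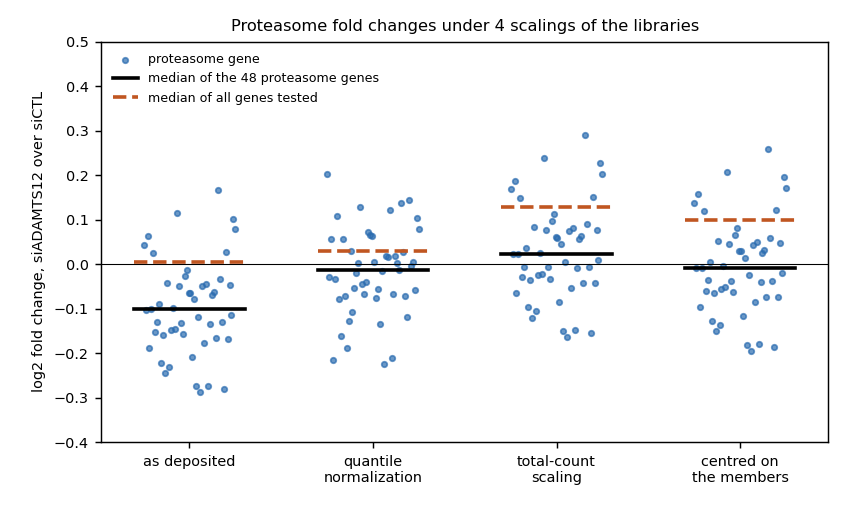
Log2 fold changes (siADAMTS12 over siCTL) of the 48 proteasome genes, each a point, under 4 scalings of the libraries. The median of the proteasome genes (black line) goes from -0.10 as deposited to 0.02 with total-count scaling, and the median of all genes tested (dashed line) from 0.005 to 0.13.

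**Figure D3:**
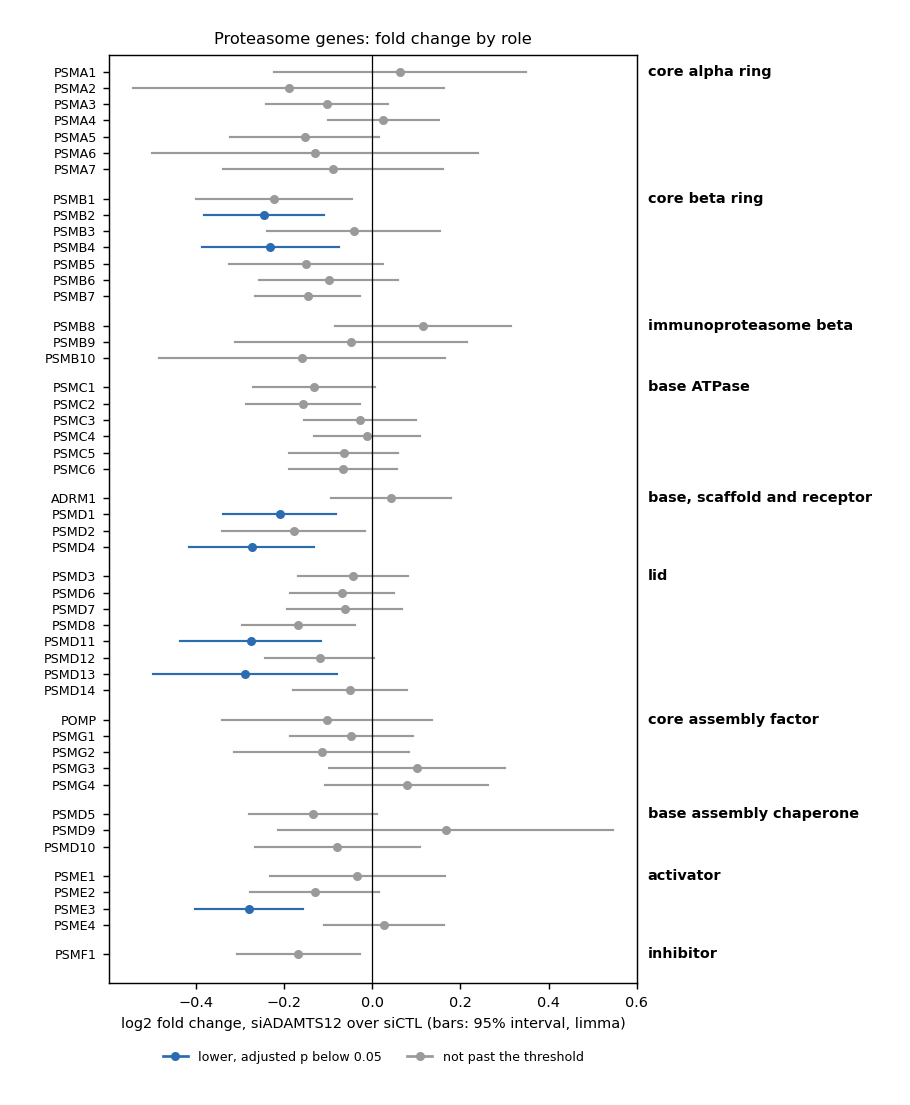
Log2 fold change (siADAMTS12 over siCTL, horizontal axis) with its 95% interval for each of the 48 proteasome genes, grouped by role. The 7 genes past the threshold (blue) lie between -0.29 and -0.21, and 40 of the 48 points lie below 0, beside 7684 of all 15637 genes tested.

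Among the 4 activators, PSME3 alone fell, beside 15.5% of all genes tested. PSME3, which forms a nuclear cap that works without ubiquitin or ATP, stood at 7997, 7843 and 8188 normalized counts in siCTL replicates 1, 2 and 3 and at 6441, 6545 and 6808 in the siADAMTS12 replicates. The groups did not overlap, and the siADAMTS12 mean was 82.4% of that in siCTL (log2 fold change -0.28 ± 0.06 SE, limma adjusted p = 0.00341). It was lower in each run that left out 1 library, in the blocked fit and with total scaling, but not after quantile normalization (adjusted p = 0.137) or relative to the other proteasome genes (0.113). PSME1 and PSME2, which form the cap induced by interferon, and PSME4, a single-chain cap, had log2 fold changes of -0.03, -0.13 and 0.03 and did not pass. PSME4 carries the guide 7-mer as PSME3 does. The inhibitor PSMF1 stood at 7531, 7551 and 8377 in siCTL and at 6757, 7240 and 6872 in siADAMTS12 (adjusted p = 0.0729).

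In the base of the regulatory particle, 2 of the 4 genes outside the ATPase ring fell, beside 15.5% of all genes tested. PSMD4, a receptor that binds ubiquitin chains, stood at 3138, 2845 and 2973 in siCTL and at 2609, 2430 and 2371 in siADAMTS12, with no overlap (-0.27 ± 0.06, limma adjusted p = 0.00880). Its call was kept in each run without 1 library and after quantile normalization, but not with total scaling (0.0974). It missed the threshold when centred on the proteasome genes as well (0.0660). In PSMD4 the guide 7-mer starts at base 6 of the 3' UTR and is followed by an A. PSMD1, the larger scaffold, stood at 10639, 10278 and 11044 against 9130, 9489 and 9018 (-0.21 ± 0.06, adjusted p = 0.0201), and lost its call after either rescaling. It also lost it without siCTL replicate 1 or 3 or siADAMTS12 replicate 1 or 3 (0.0541 to 0.0819). The second scaffold, PSMD2, was at -0.18 (adjusted p = 0.0965). The other ubiquitin receptor, ADRM1, did not pass as deposited (0.04) and rose by 0.20 after quantile normalization (adjusted p = 0.0246) and by 0.17 with total scaling (0.0477).

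None of the 6 ATPase genes, whose products form the unfolding motor, passed (1 had an unadjusted p below 0.05), and as deposited all had a log2 fold change below 0, from -0.16 to -0.01. After quantile normalization and with total scaling, 2 lay below 0 and 4 above in each case. The smallest p was that of PSMC2, at 5652, 5840 and 6071 in siCTL and 5095, 5485 and 5169 in siADAMTS12 (adjusted p = 0.0700). PSMC2 and 2 other ATPase genes were lower without overlap between groups as deposited, as were 21.7% of all genes tested. The 6 genes together took 0.0779% to 0.0801% of all counts in siCTL and 0.0799% to 0.0823% in siADAMTS12, with overlap.

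Of the 8 lid genes, 2 fell, beside 15.5% of all genes tested. PSMD11, which helps join the lid to the core, stood at 6799, 7360 and 7187 in siCTL and at 5298, 6306 and 6077 in siADAMTS12 (-0.27 ± 0.07, adjusted p = 0.0160). siADAMTS12 replicate 1 was the lowest there. Without that library, siCTL replicate 2 or siCTL replicate 3, the adjusted p was 0.0614, 0.0597 and 0.0551. PSMD13, another lid scaffold, went from 3253, 2881 and 2757 to 2810, 2281 and 2214 (-0.29 ± 0.09, adjusted p = 0.0430). Its groups overlapped, since siADAMTS12 replicate 1 lay above siCTL replicate 3, and replicate 1 was the highest of both groups. Its blocked adjusted p was 0.00227, and its call was kept without siADAMTS12 replicate 1 (0.00508) and lost without any 1 of the other 5 libraries (0.0503 to 0.159). Neither lid call held after quantile normalization or with total scaling (PSMD11 0.187 and 0.120, PSMD13 0.102 and 0.223). PSMD14, the enzyme that cleaves ubiquitin chains from substrates, was at -0.05 and did not pass. The other 5 lid genes (PSMD3, PSMD6, PSMD7, PSMD8 and PSMD12) ran from -0.17 to -0.04, and PSMD8 came nearest to the threshold (adjusted p = 0.0559). All 8 were below 0 as deposited, 4 after quantile normalization and 3 with total scaling. The lid genes took 0.117% to 0.120% of all counts in siCTL and 0.117% to 0.118% in siADAMTS12.

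In the core particle, 2 of the 7 constitutive beta genes fell, beside 15.5% of all genes tested. All 7 fold changes were below 0 as deposited (5 of 7 after quantile normalization and with total scaling). PSMB2 stood at 6232, 6613 and 6804 in siCTL and at 5233, 5727 and 5625 in siADAMTS12, with no overlap (-0.24 ± 0.06, adjusted p = 0.0129). PSMB4 stood at 6707, 6187 and 5886 against 5670, 4958 and 5378, also with no overlap (-0.23 ± 0.07, adjusted p = 0.0320). Both are structural subunits without a cutting site, and both lost the call after either rescaling. PSMB2 also lost it without siCTL replicate 3 (0.0568) or siADAMTS12 replicate 1 (0.0560), and PSMB4 without siCTL replicate 1 or 2 or siADAMTS12 replicate 2 or 3 (0.0682 to 0.118). The subunits with cutting sites, PSMB5, PSMB6 and PSMB7, were at -0.15, -0.10 and -0.15 and did not pass, nor did the structural subunits PSMB1 (-0.22) and PSMB3 (-0.04). The beta genes took 0.111% to 0.121% of all counts in siCTL and 0.110% to 0.118% in siADAMTS12, with overlap. None of the 7 alpha genes passed, and 0 had an unadjusted p below 0.05. The smallest p among them was that of PSMA5, at 3979, 3560 and 3319 in siCTL and 3476, 3075 and 3198 in siADAMTS12, with overlap (adjusted p = 0.167). The others ran from -0.19 for PSMA2 to 0.06 for PSMA1.

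**Figure D4:**
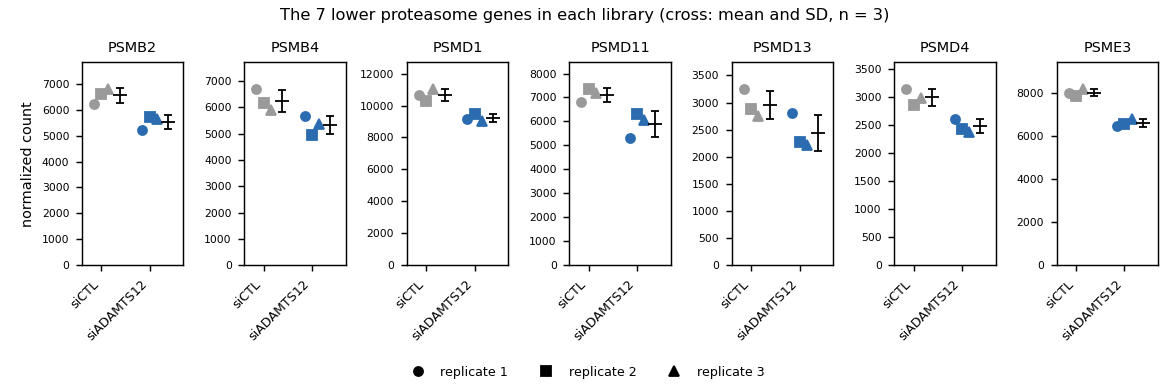
Normalized counts (vertical axes from 0) of the 7 proteasome genes past the threshold in each library, with symbols for the replicate number and the mean and SD of each group (n = 3). The groups do not overlap in 6 of the 7 panels, and in PSMD13 siADAMTS12 replicate 1 (2810) lies above siCTL replicate 3 (2757).

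The immunoproteasome subunits take the places of the cutting subunits in cells exposed to interferon, and none of the 3 passed (0 at an unadjusted p below 0.05). PSMB8 stood at 1089, 1082 and 999 in siCTL and at 1145, 1293 and 1009 in siADAMTS12, with overlap (log2 fold change 0.11, adjusted p = 0.387). Against PSMB5, whose place it takes, its log2 ratio was -2.22, -2.16 and -2.09 in siCTL and -2.02, -1.66 and -2.0 in siADAMTS12. These did not overlap, and the difference was 0.26 (2-sided exact permutation test, p = 0.1, as low as groups of 3 can give, and 0.3 adjusted over 3 ratios). Leaving out siADAMTS12 replicate 2, the highest, brought it to 0.15. The ratio of PSMB9 to PSMB6 differed by 0.05 (exact permutation p = 0.8) and that of PSMB10 to PSMB7 by -0.01 (exact permutation p = 1), both less than the SD within siADAMTS12 (0.20 and 0.26). The direction of these last 2 turned when single libraries were left out.

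None of the 5 core assembly factors passed (0 at an unadjusted p below 0.05). The smallest p was that of PSMG2, which helps assemble the alpha ring, at 2927, 2526 and 2629 in siCTL and 2797, 2189 and 2501 in siADAMTS12 (adjusted p = 0.385), and its direction turned with total scaling (0.01). POMP, which guides the beta subunits into place, was at -0.10, and PSMG1, PSMG3 and PSMG4, which act with PSMG2 on the alpha ring, ran from -0.05 to 0.10. POMP and PSMG2 were highest in replicate 1 of both groups. None of the 3 base chaperones passed (0 at an unadjusted p below 0.05). PSMD5 stood at 3247, 3231 and 3577 against 2898, 3202 and 3062 (adjusted p = 0.158), with no overlap. PSMD10 was at -0.08, and PSMD9, among the 5 genes of uncertain level, had the highest fold change of all 48 (0.17, adjusted p = 0.521), with siADAMTS12 libraries at 216, 160 and 237 and siCTL libraries at 219, 151 and 175.

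The carriers of the guide 7-mer made up 4 of the 48 genes, and 3 of these 4 fell, against 4 of the 44 others. Their median log2 fold changes were -0.26 and -0.10. Of all 12751 genes searched, 15.7% carried the 7-mer, of which 35.9% fell, while 14.9% of those without it fell. The choice of transcript mattered. PSME3's principal transcript has no annotated 3' UTR, and 5 of its 6 coding transcripts with a 3' UTR held the 7-mer. In PSMA7 1 of 3 such transcripts and in PSMG4 1 of 7 held it, though not the one searched, and neither gene passed (-0.09 and 0.08). Over any coding transcript, 3 of 6 carriers fell. The part of the guide in these falls was not tested.

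A textbook regulator of proteasome genes is the transcription factor NRF1 (gene NFE2L1), which binds antioxidant response elements together with small MAF proteins. Of the 48 genes, 42 had a promoter in the RefSeq table (GRCh38.p14, 250 bases before to 50 after the start site), and 14 of these (33.3%) held the core letters of that element, TGACNNNGC on either strand. The letters stood in 13.6% of all 27305 promoters of the table, and in 15.1% of those of genes tested. PSMD4, which fell, had no promoter there and was not searched. The match in PSMD1 is shown as the 1 among the searched genes that fell. ADRM1 and PSMB3 are shown as genes that did not fall, with the match in capitals.
PSMD1 (chr2:231056896-231056916, plus strand): aggaggcgacTGACTGAGCag
ADRM1 (chr20:62302749-62302777, plus strand): cgctcccctaTGACACAGCaacaataggg
PSMB3 (chr17:38752627-38752655, plus strand): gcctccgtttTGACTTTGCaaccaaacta
Of the 14 genes with the match 1 fell (median log2 fold change -0.05), and of the 28 without it 5 fell (-0.13). The share that fell among all genes tested was 15.5%.

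Several genes that act on the proteasome from outside had larger fold changes than any of the 48. Of 10 regulators of proteasome genes, 3 fell and 0 rose, beside 15.5% and 11.5% of all genes tested. With the replicate block 3 fell and MAFG, a small MAF, rose (log2 fold change 0.16, blocked adjusted p = 0.0287, 0.219 without the block). In the blocked fit 19.6% of all genes fell and 15.5% rose. NFE2L1 stood at 13097, 13294 and 13971 in siCTL and at 9259, 9465 and 8971 in siADAMTS12, 68.6% of the siCTL mean with no overlap (log2 fold change -0.54 ± 0.06, adjusted p = 4.43e-05). DDI2, the protease that releases NRF1 from its membrane anchor, went from 1645 ± 34.4 to 1305 ± 29 (-0.33 ± 0.06). MAFF, another small MAF, went from 1384 ± 122 to 883 ± 134 (-0.66 ± 0.11). NGLY1, which strips sugars from NRF1, and NFE2L2, which encodes the related factor NRF2, were at 0.03 and -0.01 and did not pass. The falls of NFE2L1, DDI2 and MAFF held in every alternative fit, with adjusted p up to 0.0317. NFE2L1 and DDI2 carry the guide 7-mer in the 3' UTR, and MAFF does not. STAT3 (-0.03) and FOXO4 (-0.16) carry the 7-mer as well and did not pass.

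Of 8 genes for ubiquitin receptors that deliver cargo to the proteasome or to autophagy, 7 were tested, while DDI1 was listed at 0 in all libraries. Of the 7, 5 fell and 0 rose, beside 15.5% and 11.5% of all genes tested. UBQLN4 did not pass (-0.11, adjusted p = 0.271). UBQLN2 did not pass either (0.13, adjusted p = 0.154), with 2128, 2243 and 2206 in siCTL and 2272, 2435 and 2472 in siADAMTS12, higher with no overlap. NBR1, an autophagy receptor, stood at 3880, 3554 and 3540 in siCTL and at 2344, 2285 and 2045 in siADAMTS12 (-0.72 ± 0.07, adjusted p = 2.11e-05). SQSTM1 (p62), which serves both routes, went from 15510 ± 532 to 10946 ± 642 (-0.50 ± 0.06). RAD23B and UBQLN1, shuttles to the proteasome, went to 78.5% and 79.6% of siCTL, and neither passed when libraries were centred on the proteasome genes (adjusted p = 0.0595 and 0.0757). None of NBR1, SQSTM1, RAD23B and UBQLN1 carries the 7-mer in the transcript searched, while UBQLN4, which did not pass, carries it.

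Among 13 proteasome-associated genes, 3 fell and 1 rose, beside 15.5% and 11.5% of all genes tested. ZFAND5, which stimulates the proteasome, went from 4874 ± 232 to 3250 ± 343 (-0.59 ± 0.08) and carries the 7-mer at 2 positions. USP14, a ubiquitin protease bound to the base, went from 9955 ± 418 to 8042 ± 158 (-0.31 ± 0.06, not past the threshold after quantile normalization, adjusted p = 0.0890). ECPAS, an adaptor of the assembled particle, went to 83.5% of siCTL and passed in neither rescaled fit. AKIRIN2, which carries proteasomes into the nucleus, rose: it stood at 958, 1257 and 1086 in siCTL and at 1428, 1545 and 1672 in siADAMTS12, with no overlap (0.50 ± 0.10, adjusted p = 0.00324). The lid gene SEM1 was at 0.02. UCHL5 carries the 7-mer at 1 position, was at 0.06 and did not pass.

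Of VCP, the ATPase that extracts ubiquitinated proteins for the proteasome, and 7 of its cofactors, 2 fell, beside 15.5% of all genes tested. FAF2, an anchor of VCP at the endoplasmic reticulum and lipid droplets, stood at 3725, 3588 and 3742 in siCTL and at 1449, 1458 and 1468 in siADAMTS12, 39.6% of siCTL (-1.34 ± 0.06, adjusted p = 5.00e-08), and carries the 7-mer at 1 position. UBXN1 went to 85.5% and did not pass with total scaling (adjusted p = 0.170). VCP was at -0.11 and did not pass. FAF1 (-0.13) and UBXN7 (-0.11) carry the 7-mer at 3 positions and 1 position and did not pass either. None of the 6 ubiquitin and E1 enzyme genes passed (0 at an unadjusted p below 0.05). Among these UBB had the smallest p (24345, 22886 and 22706 against 21881, 20926 and 21065, adjusted p = 0.145), and its direction turned after quantile normalization (0.07). The medians of the 5 lists ran from -0.33 for the receptors to -0.03 for the ubiquitin genes, beside 0.005 for all genes tested.

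**Figure D5:**
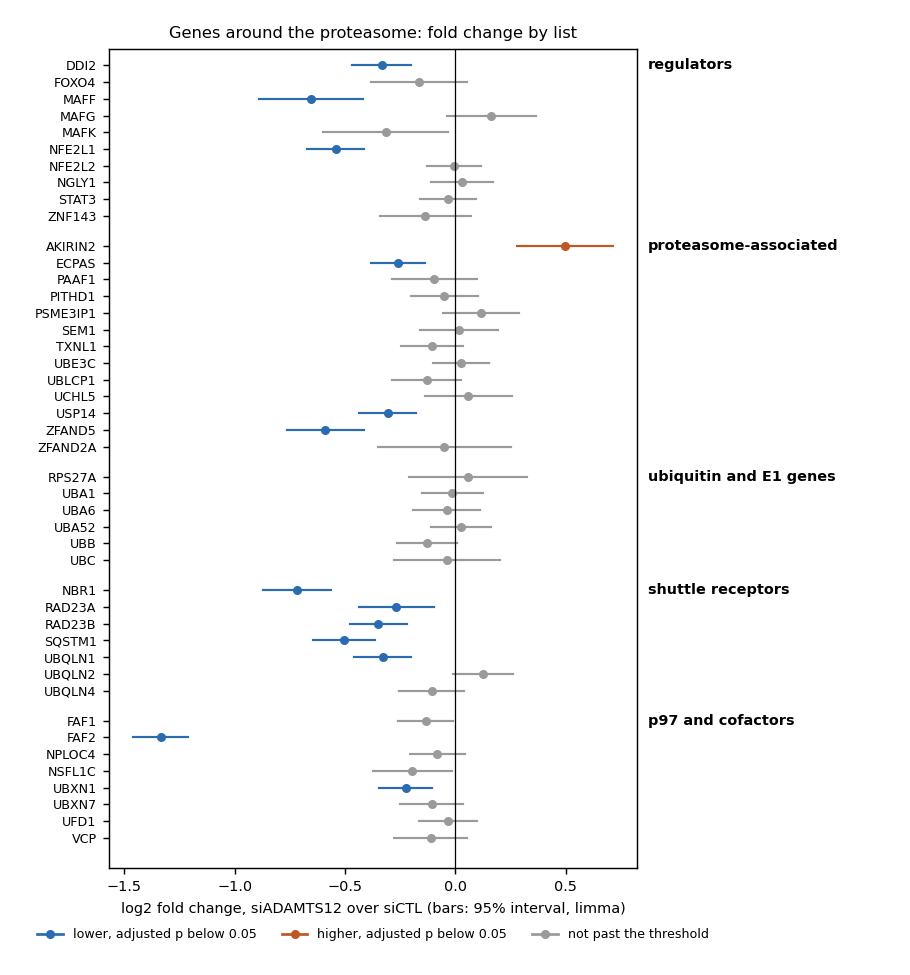
Log2 fold change (siADAMTS12 over siCTL, horizontal axis) with its 95% interval for genes around the proteasome, in 5 lists. FAF2 (-1.34) is the farthest point, 13 genes are lower (blue) and AKIRIN2 (0.50) alone is higher (orange).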

How the data were processed

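The authors deposited 1 table of normalized counts per gene as whole numbers, treated here as a score, since the values are scaled and no raw counts are used. STAR, HTSeq, DESeq2 and GRCh38 are named per the submitters' processing notes, without versions; for annotation, strand setting and counting mode the sources used here give nothing, and read depth per library is unknown. Genes with a mean of at least 10 were analysed as log2(value + 1), which understates the change of low genes. limma 3.58.1 (R 4.3.3; lmFit, eBayes with an intensity trend, 2-sided) was fitted to all 6 libraries and tested on simulated data. Intervals are per gene, without adjustment. The members and lists were chosen with earlier results of these data known.

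Values in every library are given for members past the threshold, or for the smallest p of a role with none, and at most 4 called genes are named per related list. Other values were chosen for their role. Over all genes, deviations from the group means correlated at 0.37, 0.13 and 0.13 for same-numbered libraries and at -0.19 to 0.063 for others. A fit with the number as a block was therefore run. For each gene 1 GENCODE 29 transcript was taken (coding, 3' UTR of at least 30 bases, APPRIS principal, basic set, longest 3' UTR). Of 35 proteasome pseudogene rows, 2 had a mean of at least 10 (PSME2P2 and PSMC1P1), so PSME2 and PSMC1 may share reads with them. Alternatives covered pseudocounts, filters, scalings, the trend, the block and each library left out. Python 3.11.15, pandas 2.3.3, scipy 1.17.1 and matplotlib 3.10.9 were used.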

Additional observations from a re-analysis of the deposited data

How the results depend on the processing

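The count of 7 lower proteasome genes was 15 with the replicate block, 1 after quantile normalization and 1 with total-count scaling. It was 0 with libraries centred on the proteasome genes, which takes out any shift they share. It was 2 without the intensity trend (PSMD4 and PSME3). It ran from 4 to 7 when single libraries were left out, and PSMD4 and PSME3 were called in each of those 6 fits. Of all genes, 2424 fell as reported, 1942 without the trend and 1873 to 2368 with a library left out. The proteasome count was 7 with pseudocounts of 8 and 0.5, 8 with a minimum mean of 50 and 5 with no filter, where PSMB4 and PSMD13 were lost. In those fits 2441, 2420, 2421 and 2119 of all genes fell, in the same order. The count of 0 higher became 1 after quantile normalization and 1 with total scaling. Over all genes, 1546 fell and 3868 rose with total scaling, and 1407 fell when centred on the proteasome genes. For single genes, UBB turned to 0.0743 after quantile normalization and PSMG2 to 0.00966 with total scaling. With single libraries left out, the difference in the PSMB9 to PSMB6 ratio ran from -0.047 to 0.16, that of PSMB10 to PSMB7 from -0.16 to 0.0824 and that of PSMB8 to PSMB5 from 0.15 to 0.33. The causes were not tested. With the block, these 3 differences were 0.05, -0.01 and 0.26 (exact sign-flip permutation p = 0.75, 1 and 0.25). The last of these is as low as 3 pairs can give. The 6 libraries and the unknown scaling limit what changes of this size can show.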
